A study of Homo sapiens with 4 samples.

Results

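The 36 genes described here encode the Fanconi anemia pathway, homologous recombination, and the checkpoint kinases and adaptors that respond to damaged or stalled DNA. They were chosen by gene symbol from a written list whose rule uses no measured value, and all 36 were found once each among the 24462 gene symbols of the count files. Earlier results of these data were known when the list was chosen. HepG2 is a human cell line from a hepatocellular carcinoma. It was grown in RPMI with serum, and total RNA was sequenced from the 3′ end of polyadenylated transcripts with the Lexogen QuantSeq kit. The 4 libraries were cells treated with DMSO (the solvent), cells treated with PD0332991 (palbociclib, an inhibitor of the kinases CDK4 and CDK6), cells transfected with a scrambled siRNA, and cells transfected with siRNAs to both CDK4 and CDK6 (the CDK4/6 KD). Neither the dose nor how long these cells were treated is stated in the sources used here. Every group was 1 library of 1 cell line, so the libraries have no replicate check, and no p-value is given anywhere below. Each fold change stands beside a 95% interval of the split of reads between its 2 libraries, which covers counting error only.

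The libraries held 8983848 to 11176880 counted reads. Level is given as CPM, the counted reads relative to library size after TMM scaling, and a fold change as the ratio of CPM with a pseudocount of 0.5 read. All 36 genes had at least 10 reads in at least one library of each comparison and so entered every comparison. The reads on the 36 genes numbered 15112 in DMSO, 5703 after PD0332991, 14336 with scrambled siRNA and 10633 in the CDK4/6 KD. The knockdown was visible in its targets, with CDK4 at 0.203 and CDK6 at 0.241 of the scrambled siRNA level, against 0.854 and 0.930 of the DMSO level after PD0332991. The 9 liver line markers, albumin and AFP among them, had reads in every library.

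DNA crosslinks that join both strands of the helix block replication forks. The Fanconi core complex, a ubiquitin ligase, marks the FANCI-FANCD2 clamp at such a fork, and the break that follows is repaired by homologous recombination, in which BRCA1, PALB2 and BRCA2 act on the resected DNA so that it can be copied from the intact sister. ATR and ATM are the kinases that sense stalled forks and breaks, and CHEK1 and CHEK2 carry their signal to the cell cycle. Many of these genes are transcribed mostly in late G1 and S phase, under E2F factors that the retinoblastoma protein holds back until CDK4 and CDK6 phosphorylate it.

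Promoter sequence is shown for the 4 genes with the lowest ratios after PD0332991 and for the 2 with the highest ratios, because these are the ends of the range described below. The sequences are from RefSeq on GRCh38.p14 and run 5′ to 3′ on the strand of the gene, from 250 bases before the annotated start to 30 bases after it. They lie at chr1:241847954-241848233 (plus strand) for EXO1, chr1:35769949-35770228 (minus) for CLSPN, chr15:90717096-90717375 (plus) for BLM, chr12:4538640-4538919 (plus) for RAD51AP1, chr11:22625794-22626073 (minus) for FANCF and chr1:46247438-46247717 (plus) for RAD54L. EXO1 and RAD54L have more than 1 start in the table, and the one listed first is printed. Capitals mark the letters TTTCCCGC, TTTGGCGC, TTTCGCGC or TTTGCCGC, or the shorter TTCCCGC, on either strand, all of which are written forms of an E2F site.
EXO1: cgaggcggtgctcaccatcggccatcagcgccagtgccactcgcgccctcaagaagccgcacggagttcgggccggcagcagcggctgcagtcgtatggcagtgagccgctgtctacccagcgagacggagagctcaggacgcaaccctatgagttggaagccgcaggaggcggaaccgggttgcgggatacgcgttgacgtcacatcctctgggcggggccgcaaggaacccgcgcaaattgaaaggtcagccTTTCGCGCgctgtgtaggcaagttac
CLSPN: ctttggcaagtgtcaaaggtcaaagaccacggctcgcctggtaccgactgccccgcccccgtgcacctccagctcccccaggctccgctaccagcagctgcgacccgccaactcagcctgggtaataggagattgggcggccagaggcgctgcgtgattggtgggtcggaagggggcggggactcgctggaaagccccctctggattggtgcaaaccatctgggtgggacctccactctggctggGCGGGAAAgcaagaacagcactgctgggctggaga
BLM: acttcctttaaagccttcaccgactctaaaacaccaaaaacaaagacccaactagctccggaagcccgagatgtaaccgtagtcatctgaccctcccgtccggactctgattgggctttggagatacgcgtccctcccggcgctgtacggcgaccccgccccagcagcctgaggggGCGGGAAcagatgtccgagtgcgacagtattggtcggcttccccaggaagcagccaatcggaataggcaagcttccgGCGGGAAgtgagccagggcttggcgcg
RAD51AP1: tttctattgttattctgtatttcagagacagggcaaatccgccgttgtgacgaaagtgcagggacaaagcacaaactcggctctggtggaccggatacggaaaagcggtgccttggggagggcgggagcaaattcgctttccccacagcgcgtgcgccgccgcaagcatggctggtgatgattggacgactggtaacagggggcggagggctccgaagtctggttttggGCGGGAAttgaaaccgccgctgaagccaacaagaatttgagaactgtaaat
FANCF: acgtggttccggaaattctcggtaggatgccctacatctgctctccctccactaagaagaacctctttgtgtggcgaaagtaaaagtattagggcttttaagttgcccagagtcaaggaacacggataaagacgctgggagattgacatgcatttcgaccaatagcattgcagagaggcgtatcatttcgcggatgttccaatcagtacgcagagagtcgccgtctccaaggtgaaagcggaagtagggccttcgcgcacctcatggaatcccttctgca
RAD54L: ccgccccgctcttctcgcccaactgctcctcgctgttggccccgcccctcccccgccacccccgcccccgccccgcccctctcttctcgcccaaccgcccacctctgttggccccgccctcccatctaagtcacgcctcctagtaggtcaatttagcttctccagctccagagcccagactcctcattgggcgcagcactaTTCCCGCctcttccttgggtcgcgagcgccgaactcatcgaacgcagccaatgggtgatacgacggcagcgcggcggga

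The 4 genes with the lowest ratios each held a marked stretch, and so did RAD54L, whose ratio was the highest of all. Only EXO1 and CLSPN held one of the 4 longer forms. BLM, RAD51AP1 and RAD54L are marked only through the shorter TTCCCGC, which was added after these same promoters had been read. The marks on the 4 lowest genes are therefore no independent result. The reads of RAD54L may belong in part to a neighbour, as given below. FANCF held none of these letters. Promoter entries of 300 bases were found for 34 of the 36 genes, all except FANCI and RAD54B. Any of the 4 longer forms was present in 7 of the 34 (20.6%), namely FANCA, FANCC, FANCD2, XRCC2, EXO1, MSH6 and CLSPN. The same letters were in 3.32% of all 35116 promoters of the table and in 6.55% of the 9785 genes tested after PD0332991 that have an entry. The letters TTCCCGC, contained in TTTCCCGC and added after the printed promoters had been read, were in 17 of the 34 genes (50%), against 6.55% of all promoters and 12.6% of the tested genes. The CHR letters TTTGAA and TTCGAA, known from promoters of late cell cycle genes, were in 6 of the 34 (17.6%: FANCC, UBE2T, USP1, BRIP1, POLQ and ATM), close to the 16.4% of all promoters. CCAAT was in 19 of the 34 (55.9%), against 34.6% of all promoters and 43.1% of the tested genes. A match of letters is a description of the window, and no factor was measured on these promoters.

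After PD0332991, 26 of the 36 genes were at least 2-fold lower than in DMSO and none was 2-fold higher. Over all 13443 genes tested, 7.06% were 2-fold lower and 1007 genes were 2-fold higher. Over the 10239 genes in the same range of mean reads (25 to 1333), 6.48% were 2-fold lower. On the log2 scale the middle of the 36 ratios was -1.64 (median), against a median of 0.02 over all genes. The counting interval lay under 1 for 30 genes (28.6% of all genes), over 1 for none (28.1% of all genes), and included 1 for FANCC, FANCF, RAD51D, RAD54L, ATM and ATR. The summed level of the 36 genes was 1654 CPM in DMSO and 626 CPM after PD0332991. In bulk RNA, fewer cells that express a gene and less of its RNA per cell cannot be told apart. The gene just inside the 2-fold threshold was CHEK1 at 0.487, and the gene just outside was PALB2 at 0.561.

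In the CDK4/6 KD, 7 of the 36 genes were at least 2-fold lower than with scrambled siRNA, against 7.62% of the 13617 genes tested and 6.08% in the same read range. They were BRCA1, BRIP1, RAD51AP1, XRCC2, BLM, CHEK1 and CLSPN, and all 7 were 2-fold lower after PD0332991 as well. None of the 36 was 2-fold higher, against 1252 of the 13617 genes tested. The interval lay under 1 for 25 genes (31.9% of all genes) and over 1 for USP1 and RAD54L (30% of all genes). The median log2 fold change was -0.68, against -0.004 over all genes. Counts near the threshold moved with it. EXO1 at 0.502 and FANCD2 at 0.504 stood just outside, and 3 genes (RAD51AP1, CHEK1 and CLSPN) had their whole interval past 2-fold.

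**Figure D1:**
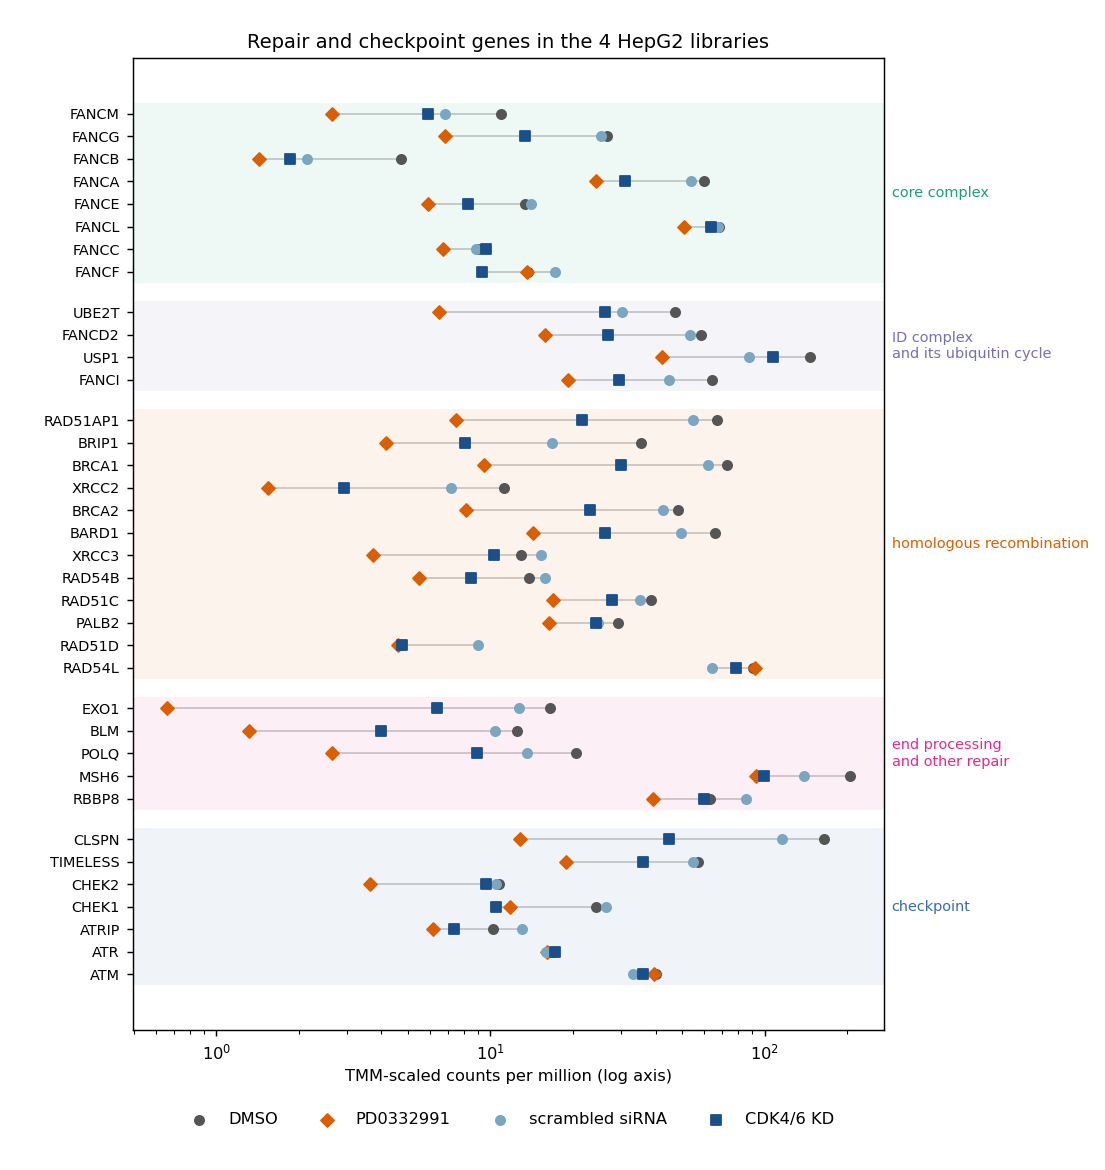
Level of each of the 36 genes in the 4 libraries, as TMM-scaled CPM on a log axis, grouped by role, with 1 point per library and a line over the range of the 4. The PD0332991 point is the leftmost for most genes, while FANCF, ATM and RAD54L lie at their DMSO level, and the CDK4/6 KD point usually lies between PD0332991 and the controls.

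The core complex of the Fanconi pathway was represented by 8 genes, of which 5 were 2-fold lower after PD0332991 and none in the CDK4/6 KD. Their median log2 changes were -1.23 and -0.48. Values in this and the following paragraphs are given in the order DMSO, PD0332991, scrambled siRNA, CDK4/6 KD. FANCM, the translocase that anchors the complex on DNA, stood at 10.9, 2.64, 6.82 and 5.92 CPM. Its ratio after PD0332991 was 0.245 (95% interval 0.147 to 0.379), the lowest of the 8, while in the CDK4/6 KD it was 0.869 (95% interval 0.613 to 1.23) against scrambled siRNA and 0.543 (95% interval 0.391 to 0.744) against DMSO. FANCG, the partner of FANCA, stood at 26.6, 6.81, 25.2 and 13.3 CPM, and both treated libraries lay under both controls, with ratios of 0.258 (0.191 to 0.340) and 0.529 (0.430 to 0.648). FANCA stood at 60.0, 24.3, 54.0 and 31.0 CPM, again with both treated libraries lower, at 0.405 (0.345 to 0.474) and 0.574 (0.501 to 0.657).

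FANCB, of the module that holds the ligase, was the least read of these genes, with 43, 13, 23 and 21 reads. It was lower after PD0332991 at 0.311 (95% interval 0.150 to 0.575), but the 21 reads of the CDK4/6 KD could not be told from the 23 of the scrambled siRNA. Against DMSO the CDK4/6 KD ratio of FANCB was 0.400 (0.222 to 0.679). FANCL, the ubiquitin ligase itself, stood at 68.2, 51.0, 67.8 and 63.9 CPM and was lower after PD0332991 by less than 2-fold, at 0.748 (95% interval 0.661 to 0.844). FANCC, FANCE and FANCF form the module that holds the substrate, and they behaved unlike each other. FANCE stood at 13.3, 5.93, 14.1 and 8.30 CPM and was lower in both arms, at 0.446 (0.316 to 0.617) and 0.590 (0.450 to 0.766). FANCC stood at 8.97, 6.70, 8.88 and 9.63 CPM, and neither interval left 1, at 0.748 (0.527 to 1.05) and 1.08 (0.816 to 1.44). FANCF stood at 13.7, 13.6, 17.2 and 9.28 CPM. Its ratio was 0.996 (95% interval 0.770 to 1.29) after PD0332991 and 0.541 (95% interval 0.420 to 0.689) in the CDK4/6 KD. Against these controls it was lower in the knockdown and not detectably changed by the inhibitor. Against scrambled siRNA, the PD0332991 ratio of FANCF was 0.793 (95% interval 0.6255 to 0.9999).

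The substrate clamp and the enzymes that set and remove its ubiquitin gave 4 genes, all 2-fold lower after PD0332991 and none in the CDK4/6 KD (median log2 -1.84 and -0.40). FANCD2 stood at 58.4, 15.8, 53.5 and 26.9 CPM, with ratios of 0.271 (0.224 to 0.326) and 0.504 (0.436 to 0.579). Its partner FANCI stood at 64.1, 19.1, 44.9 and 29.5 CPM, with ratios of 0.299 (0.250 to 0.353) and 0.658 (0.570 to 0.758). Both parts of the clamp were therefore low in both treated libraries, and more so after PD0332991. UBE2T, the conjugating enzyme of the reaction, stood at 47.1, 6.48, 30.1 and 26.1 CPM. It had the lowest ratio of the 4 after PD0332991, 0.139 (95% interval 0.103 to 0.181), whereas its interval in the CDK4/6 KD, 0.869 (0.740 to 1.02), included 1. Here too the control mattered, since the scrambled siRNA level was 0.640 (0.552 to 0.741) of DMSO and the CDK4/6 KD ratio against DMSO was 0.556 (0.478 to 0.646).

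USP1, the protease that takes ubiquitin off FANCD2, had 1335, 385, 936 and 1213 reads, or 146, 42.3, 87.5 and 107 CPM. After PD0332991 it was at 0.290 (95% interval 0.258 to 0.324), and in the CDK4/6 KD at 1.23 (95% interval 1.12 to 1.34), on opposite sides of 1. The control decides the second direction, since the scrambled siRNA library was itself at 0.599 (95% interval 0.550 to 0.651) of DMSO. Against DMSO, the CDK4/6 KD ratio of USP1 was 0.734 (95% interval 0.678 to 0.793).

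Homologous recombination gave 12 genes, 9 of them 2-fold lower after PD0332991 and 4 in the CDK4/6 KD (median log2 -1.99 and -0.90). RAD51AP1, which promotes invasion of the intact strand, stood at 67.0, 7.47, 54.8 and 21.6 CPM. Its ratios of 0.112 (0.0855 to 0.143) and 0.396 (0.339 to 0.460) were the lowest of the 12 in each arm. BRIP1, the helicase that binds BRCA1, stood at 35.5, 4.17, 16.7 and 8.04 CPM, with 0.119 (0.0818 to 0.165) after PD0332991 and 0.482 (0.369 to 0.622) in the CDK4/6 KD. BRIP1 also differed between the controls, and its scrambled siRNA level was 0.472 (95% interval 0.391 to 0.568) of DMSO. BRCA1 stood at 72.7, 9.45, 62.0 and 30.04 CPM, and its ratios were 0.131 (0.103 to 0.163) and 0.485 (0.424 to 0.553). BARD1, with which BRCA1 forms a ubiquitin ligase, stood at 65.8, 14.3, 49.6 and 26.1 CPM, and its ratios were 0.218 (0.178 to 0.263) and 0.527 (0.456 to 0.609). The pair thus had treated levels below both controls in each arm, with the larger decrease after PD0332991.

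BRCA2, a mediator of strand exchange, stood at 48.5, 8.13, 42.6 and 23.1 CPM, with ratios of 0.169 (0.129 to 0.215) and 0.542 (0.463 to 0.631). PALB2, the bridge between BRCA1 and BRCA2, stood at 29.2, 16.4, 24.7 and 24.2 CPM. It was lower after PD0332991, at 0.561 (95% interval 0.455 to 0.687), by less than 2-fold, and at 0.981 (95% interval 0.826 to 1.17) in the CDK4/6 KD its interval included 1. BRCA2 and its bridge to BRCA1 thus differed in both arms, and in neither did their intervals overlap.

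XRCC2, XRCC3, RAD51C and RAD51D, related proteins that assist strand exchange, ranged widely. XRCC2 had few reads (102, 14, 77 and 33 reads) and was low in both arms, at 0.142 (95% interval 0.0727 to 0.242) and 0.409 (95% interval 0.261 to 0.617). XRCC3 stood at 12.9, 3.73, 15.3 and 10.3 CPM, with ratios of 0.292 (0.191 to 0.427) and 0.675 (0.527 to 0.860). RAD51C, the partner of XRCC3, stood at 38.4, 16.9, 35.1 and 27.7 CPM, with ratios of 0.441 (0.362 to 0.534) and 0.790 (0.677 to 0.919). For these 3 genes the level was lowest after PD0332991. RAD51D was read 43, 42, 96 and 54 reads, with 0.980 (95% interval 0.625 to 1.54) after PD0332991 and 0.534 (95% interval 0.374 to 0.750) in the CDK4/6 KD. The scrambled siRNA library was the high one, at 1.90 (95% interval 1.32 to 2.80) of DMSO, and the other 3 libraries held 4.61 to 4.77 CPM. Of the DNA translocases of strand exchange, RAD54B stood at 13.8, 5.49, 15.8 and 8.48 CPM, with ratios of 0.401 (0.281 to 0.557) and 0.538 (0.414 to 0.694). RAD54L stood at 90.5, 92.4, 64.1 and 79.0 CPM, with 1.02 (95% interval 0.926 to 1.12) after PD0332991 and 1.23 (95% interval 1.11 to 1.36) in the CDK4/6 KD. RAD54L was the only one of the 36 genes with a ratio over 1 in both arms, but its reads may belong in part to a neighbour, as given below.

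**Figure D2:**
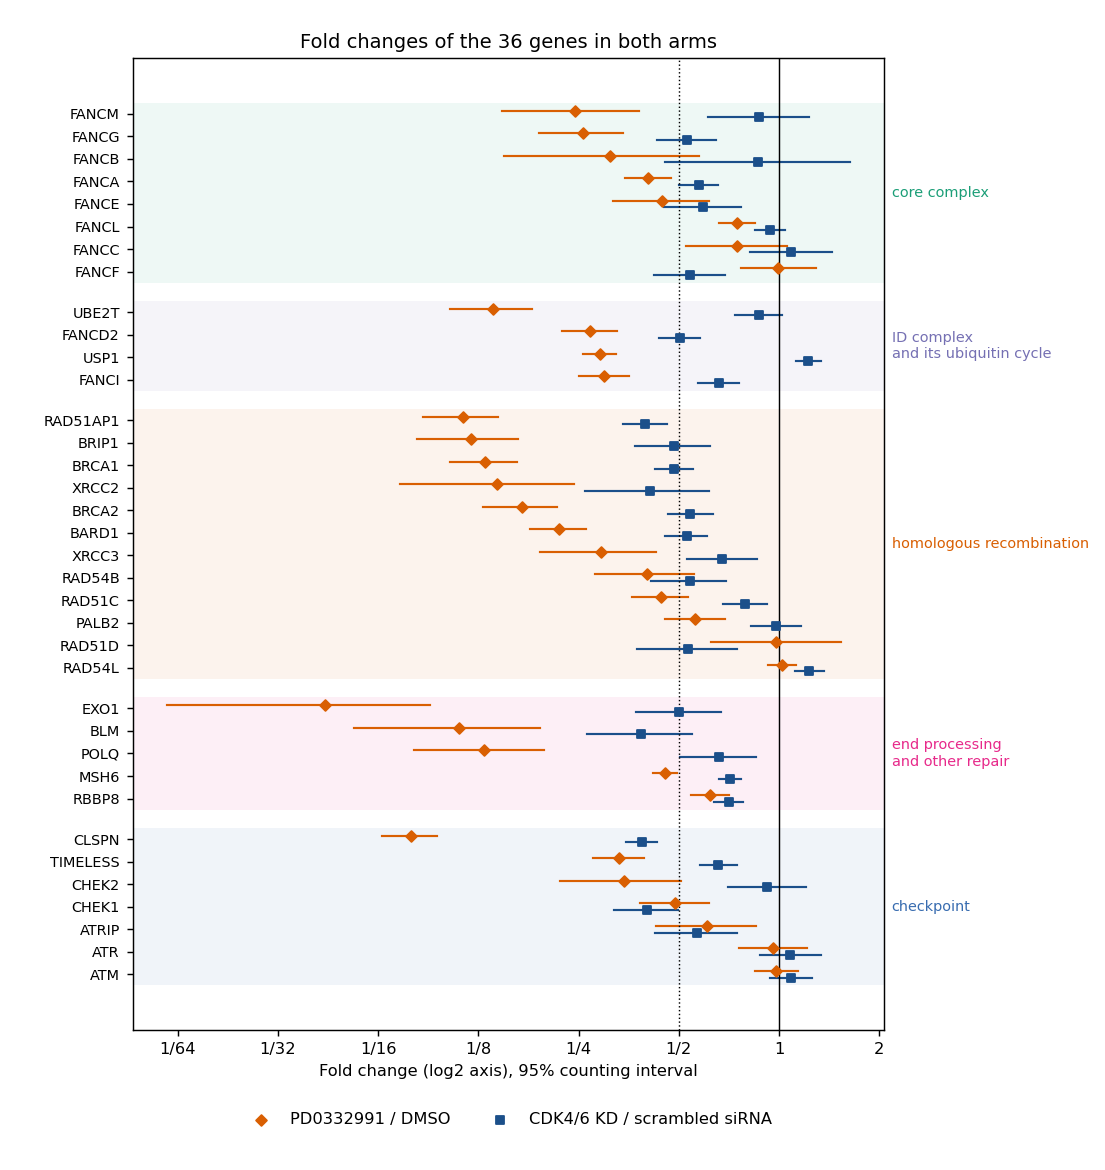
Fold change of each gene on a log2 axis after PD0332991 against DMSO (diamonds) and in the CDK4/6 KD against scrambled siRNA (squares), with 95% counting intervals, a solid line at 1 and a dotted line at the 2-fold decrease. The diamonds of 26 genes and the squares of 7 lie at or left of the dotted line.

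The enzymes that process ends and other repair enzymes gave 5 genes, 4 of them 2-fold lower after PD0332991 and 1 in the CDK4/6 KD (median log2 -2.94 and -0.60). EXO1, an exonuclease of long-range end resection and mismatch repair, had 150, 6, 136 and 72 reads. Its ratio after PD0332991 was 0.0433 (95% interval 0.0145 to 0.0894), the lowest of the 36 genes, and rests on 6 reads in the treated library. In the CDK4/6 KD it was 0.502 (95% interval 0.371 to 0.671). BLM, the helicase that dissolves recombination intermediates, had 114, 12, 111 and 45 reads and ratios of 0.110 (0.0530 to 0.192) and 0.386 (0.265 to 0.546), the latter the lowest ratio of that arm. POLQ, the polymerase of theta-mediated end joining, stood at 20.6, 2.64, 13.6 and 8.92 CPM, with ratios of 0.130 (0.0801 to 0.197) and 0.660 (0.506 to 0.855). In these 3 genes the order of the libraries was the same, with DMSO highest, then scrambled siRNA, then the CDK4/6 KD, and PD0332991 lowest.

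MSH6, which recognises mismatches, was the most read of the 36 genes, with 1870, 846, 1492 and 1125 reads. Its ratios of 0.454 (0.418 to 0.493) and 0.713 (0.659 to 0.771) were both under 1, as was the scrambled siRNA ratio to DMSO of 0.681 (95% interval 0.636 to 0.730). RBBP8 (CtIP), which starts end resection, stood at 63.4, 39.3, 85.4 and 60.2 CPM. It was lower in both arms by less than 2-fold, at 0.621 (0.542 to 0.709) and 0.706 (0.638 to 0.780), and higher in scrambled siRNA than in DMSO, at 1.35 (95% interval 1.21 to 1.498).

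The checkpoint gave 7 genes, 4 of them 2-fold lower after PD0332991 and 2 in the CDK4/6 KD (median log2 -1.04 and -0.61). After PD0332991 the sensor kinases ATM and ATR were the least changed of the 7. ATM stood at 40.3, 39.5, 33.1 and 35.9 CPM and ATR at 16.9, 16.1, 15.9 and 17.1 CPM, and their ratios were 0.982 (0.847 to 1.14) and 0.958 (0.759 to 1.21) after PD0332991. In the CDK4/6 KD the ratios were 1.08 (0.938 to 1.25) for ATM and 1.08 (0.874 to 1.33) for ATR, so that all 4 intervals included 1. ATRIP, which brings ATR to single-stranded DNA, stood at 10.2, 6.15, 13.0 and 7.33 CPM and was lower in both arms, at 0.606 (0.426 to 0.851) and 0.566 (0.425 to 0.746).

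CHEK1, CHEK2, CLSPN and TIMELESS were each 2-fold lower after PD0332991, and all but CHEK2 had an interval under 1 in the CDK4/6 KD. CHEK1 stood at 24.2, 11.8, 26.4 and 10.5 CPM, with 0.487 (95% interval 0.382 to 0.615) after PD0332991 and 0.400 (95% interval 0.319 to 0.496) in the CDK4/6 KD. It was the only one of the 26 genes lowered 2-fold by the inhibitor whose ratio was lower in the knockdown, and the 2 intervals overlapped. CHEK2 stood at 10.7, 3.62, 10.5 and 9.63 CPM, lower after PD0332991 at 0.341 (95% interval 0.221 to 0.506), with an interval in the CDK4/6 KD, 0.920 (0.700 to 1.21), that included 1. The genome holds near-identical copies of the 3′ part of CHEK2, so its counts are uncertain. CLSPN, the adaptor through which ATR activates CHEK1, had 1505, 117, 1237 and 506 reads, or 165, 12.8, 116 and 44.7 CPM. Its ratios were 0.0783 (0.0641 to 0.0942) and 0.387 (0.348 to 0.429), the former second only to EXO1. TIMELESS, of the complex that protects stalled forks, stood at 57.2, 18.9, 54.8 and 35.96 CPM, with ratios of 0.331 (0.276 to 0.393) and 0.657 (0.577 to 0.746).

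The 2 arms share no library, and their ratios can be set side by side gene by gene. The ratio was lower after PD0332991 than in the CDK4/6 KD for 32 of the 36 genes. For 24 genes the PD0332991 interval lay wholly under the CDK4/6 KD interval. The reverse held for FANCF alone, and the intervals of the other 11 overlapped. Pearson's r between the log2 changes of the arms was 0.55 and Spearman's rho 0.58 over the 36 genes, which are not independent replicates. Both intervals lay under 1 for 23 genes. Of the 26 genes 2-fold lower after PD0332991, 19 were not 2-fold lower in the CDK4/6 KD, and FANCC, FANCF, FANCL, PALB2, RAD51D, RAD54L, RBBP8, ATM, ATR and ATRIP were 2-fold lower in neither. With the 2 controls exchanged, 15 genes had the PD0332991 interval wholly lower and 3 (RAD54L, MSH6 and ATM) the CDK4/6 KD interval, so the gap between the arms depends on the controls. None of these counts was made over all genes, so they do not show whether the gap is particular to the 36. The degree to which each treatment reduced kinase activity was not measured in these libraries.

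**Figure D3:**
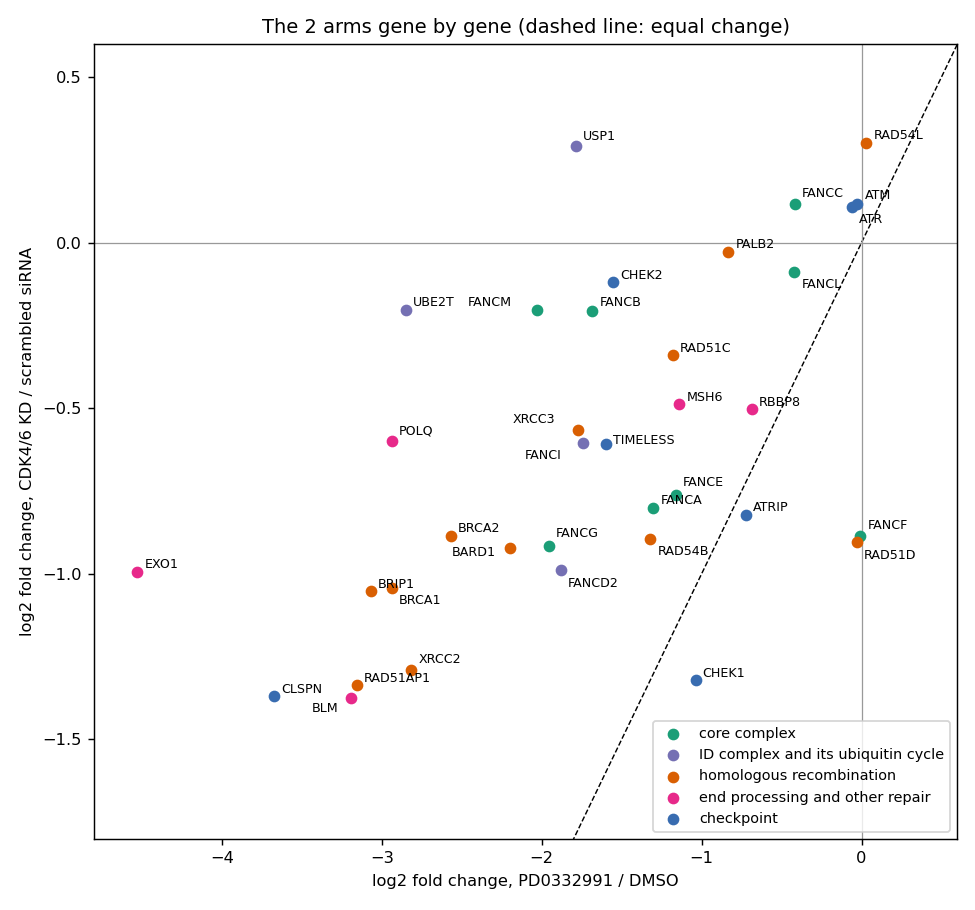
Log2 fold change of each gene after PD0332991 (horizontal axis) and in the CDK4/6 KD (vertical axis), coloured by role, with a dashed line where both changes are equal. The 32 genes to the left of the line have the lower ratio after PD0332991, CHEK1, FANCF, RAD51D and ATRIP lie to its right, and USP1 stands alone at the upper left.

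The 2 control libraries differed from each other in some of these genes. FANCB at 0.463 and BRIP1 at 0.472 were 2-fold lower in scrambled siRNA than in DMSO (6.64% of the 13303 genes tested, and 5.27% in the same read range). None of the 36 was 2-fold higher, against 705 of the 13303 genes. The interval was under 1 for 16 genes (28.0% of all genes) and over 1 for RAD51D and RBBP8 (28.3% of all genes). The median log2 change of the 36 genes was -0.21, against 0.009 over all genes. Against DMSO in place of scrambled siRNA, 15 genes instead of 7 were 2-fold lower in the CDK4/6 KD, against 8.16% of the 13512 genes tested. The interval lay under 1 for 28 genes instead of 25, against 4122 of the 13512 genes. FANCB, FANCM, UBE2T, PALB2, USP1 and RAD54L came to lie under 1, and the intervals of RAD51D, XRCC3 and RBBP8 came to include it. Against scrambled siRNA in place of DMSO, the number 2-fold lower after PD0332991 was again 26, against 8.17% of the 13552 genes tested. FANCB and MSH6 left this set, and RBBP8 and ATRIP entered it. FANCF, at 0.793 (95% interval 0.6255 to 0.9999), and RAD51D, at 0.517 (95% interval 0.349 to 0.746), came to lie under 1. In that comparison FANCB was no longer told from its control, at 0.672 (95% interval 0.309 to 1.37), and ATM and RAD54L were over 1, RAD54L at 1.44 (95% interval 1.30 to 1.60).

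Another gene is annotated over the last 500 bases of 8 of the 36 genes in GENCODE 29 (GRCh38), and whether the counting used strand is not given in the sources used here. RAD54L overlaps LRRC41 on the opposite strand. RAD54L had 827, 841, 686 and 894 reads, and LRRC41 had 788, 902, 709 and 925 reads, so the 2 symbols had nearly the same number of reads in every library. FANCL and VRK2, also on opposite strands, had 623, 464, 726 and 723 reads and 639, 474, 862 and 786 reads. The counts of RAD54L and FANCL are therefore uncertain, and reads of the partner cannot be told apart from their own. FANCA with ZNF276, FANCI with POLG and MSH6 with FBXO11 overlap on opposite strands too, and there the member of the 36 had the higher level in DMSO. After PD0332991 the counts of 2 of these pairs were close, with 221 reads for FANCA and 204 for ZNF276, and 174 for FANCI and 149 for POLG, so reads of the partner cannot be told apart there either. RAD51D with RAD51L3-RFFL, RAD54B with FSBP and ATRIP with TREX1 share a strand. RAD51D, at 4.71 CPM in DMSO, stood beside RAD51L3-RFFL at 45.5 CPM, so reads of the RAD51D locus may be counted under the longer name. Among the 28 genes with no such neighbour, 22 were 2-fold lower after PD0332991 and 7 in the CDK4/6 KD, with median log2 changes of -1.84 and -0.68.

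**Figure D4:**
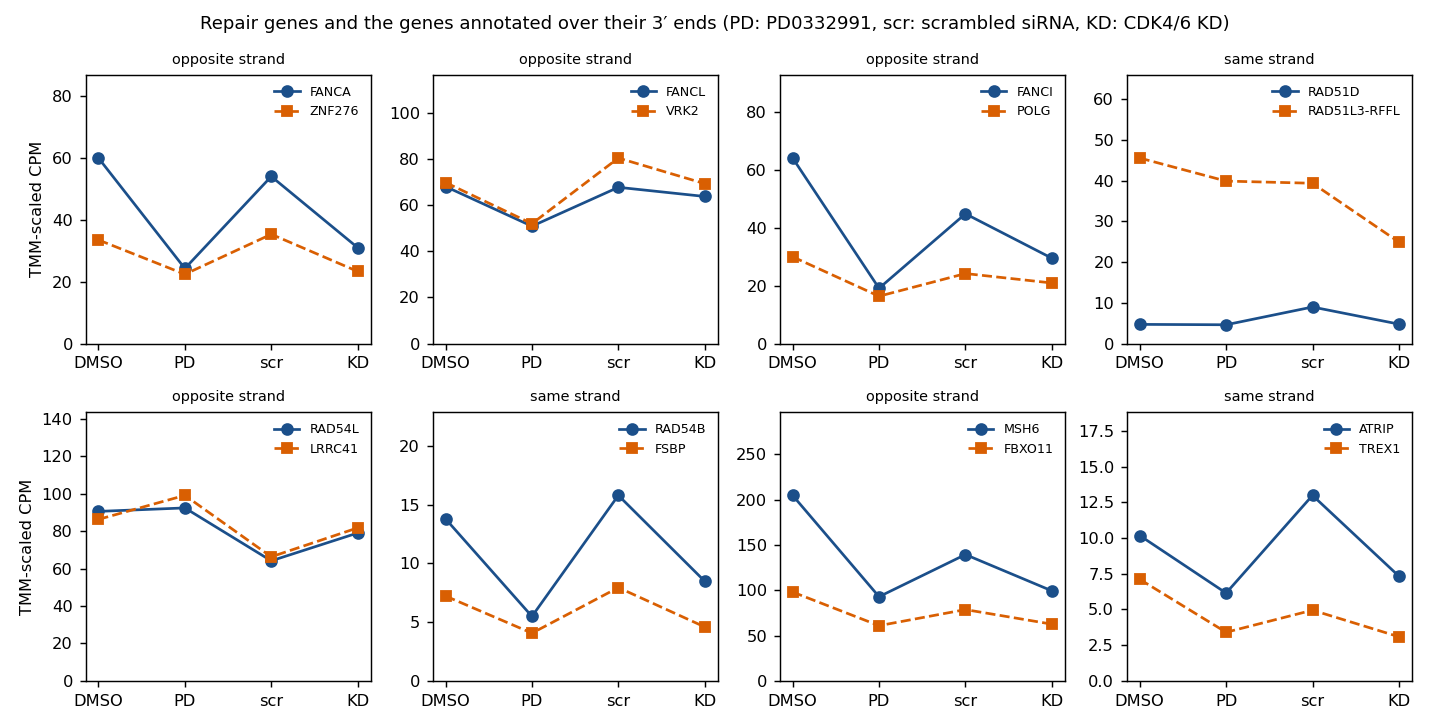
Level in CPM (vertical axis, from 0) in the 4 libraries (horizontal axis) for the 8 genes with another gene annotated over their 3′ end and for that gene. The lines of RAD54L and LRRC41, and of FANCL and VRK2, run closest together, whereas the other 6 pairs lie apart in DMSO.

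The letters TTCCCGC were added after promoters picked by their PD0332991 ratio had been read, so a split by them is no independent check. Genes with TTCCCGC in the promoter had a median log2 change of -1.96 after PD0332991 and -0.92 in the CDK4/6 KD. Those without it had -1.30 and -0.34. The number 2-fold lower was 13 of 17 with and 11 of 17 without the letters after PD0332991, and 6 of 17 and 1 of 17 in the CDK4/6 KD. BRCA2 and UBE2T, among the lowest after PD0332991, had neither these letters nor any of the 4 longer forms, while FANCC, RAD51D and RAD54L had at least one and included 1 in the interval after PD0332991. The ratios of RAD51D and RAD54L are uncertain, since another gene is annotated over the 3′ end of each, as given above. With any of the longer forms the medians were -1.88 after PD0332991 and -0.99 in the CDK4/6 KD, against -1.60 and -0.60 without. The split by the CHR letters gave -2.32 and -0.04 with them, against -1.57 and -0.81 without. By CCAAT it gave -1.60 and -0.61 with, against -1.68 and -0.76 without. A lower median after PD0332991 was therefore not particular to the E2F letters.

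Other genes of the same pathways gave the following counts. Of 42 tested among 45 other Fanconi and recombination genes, 15 were 2-fold lower after PD0332991 and 1 was 2-fold higher, and in the CDK4/6 KD 6 of 43 were lower (median log2 -0.45 and -0.28). DNA2, a nuclease and helicase of end resection, had 77, 9, 33 and 53 reads and was at 0.123 (0.0517 to 0.234) after PD0332991, but at 1.51 (0.965 to 2.42) in the CDK4/6 KD. SWSAP1, of the Shu complex, was the highest, at 2.48 (1.79 to 3.50) and 1.52 (1.13 to 2.08). Of 18 other checkpoint genes, 12 were 2-fold lower after PD0332991 and 2 in the CDK4/6 KD (median log2 -1.39 and -0.54), led by H2AFX at 0.101 (0.0821 to 0.122) and the mitotic kinase PLK1 at 0.126 (0.114 to 0.138). RAD17, the clamp loader of the checkpoint, was higher after PD0332991 at 2.21 (1.39 to 3.65), on 27 reads in DMSO and 60 after treatment.

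The repair pathways outside recombination had medians nearer to 0 than the 36 genes in both arms. So had the other Fanconi and recombination genes, at -0.45 after PD0332991 and -0.28 in the CDK4/6 KD, within or near the range of those pathways. In end joining 1 of 12 genes was 2-fold lower after PD0332991, XRCC4 at 0.305 (0.182 to 0.480). In base excision repair it was 3 of 18, among them UNG at 0.333 (0.297 to 0.372) and NEIL3, with 50 reads in DMSO and 2 after PD0332991, a ratio with a counting interval of 0.0497 (0.00473 to 0.153). In nucleotide excision repair it was none of 18, and in translesion synthesis 2 of 12, RAD18 at 0.317 (0.215 to 0.449) and PRIMPOL at 0.442 (0.267 to 0.697). Median log2 changes after PD0332991 were -0.31, -0.12, -0.05 and -0.54 in that order, and -0.26 over 6 mismatch repair genes. In the CDK4/6 KD, 4 of 18 nucleotide excision repair genes were 2-fold lower, RAD23B at 0.458 (0.423 to 0.495) and ERCC1 at 0.495 (0.443 to 0.552) among them, and the median was -0.27. Over the 108 repair genes tested outside the 36, with the 18 other checkpoint genes left out, 22 were 2-fold lower after PD0332991 and 2 higher.

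**Figure D5:**
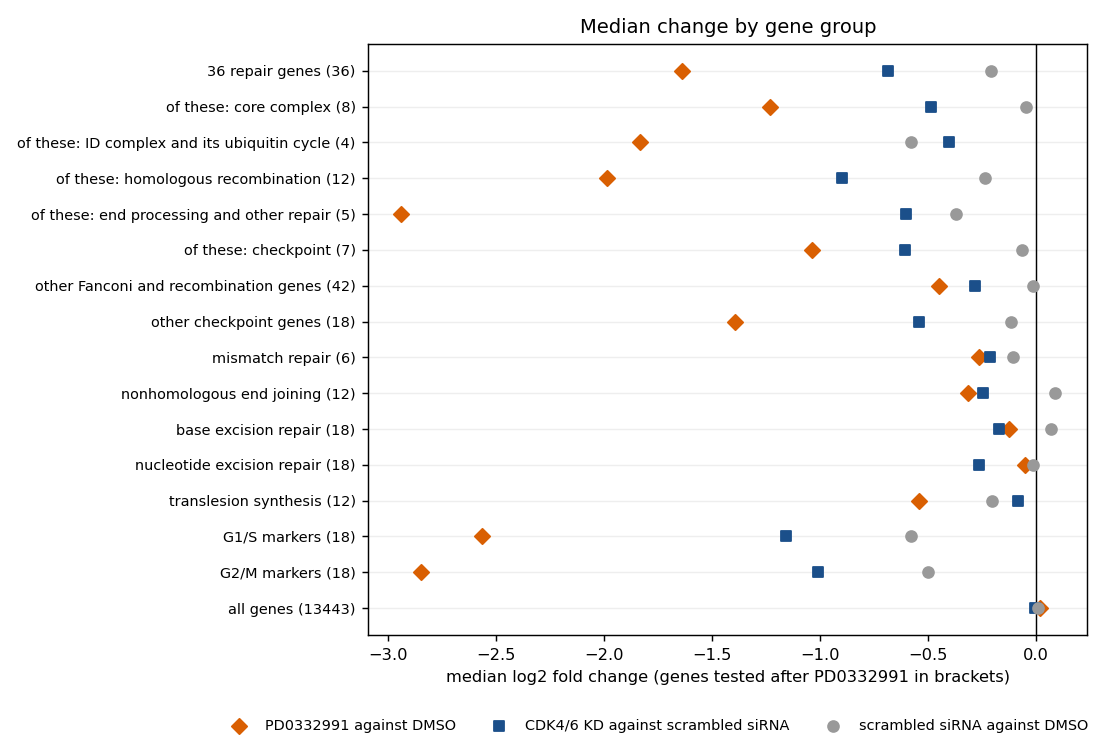
Median log2 fold change (horizontal axis) of the 36 genes, their 5 role groups, other repair lists, cell cycle marker lists and all genes, for PD0332991 against DMSO, CDK4/6 KD against scrambled siRNA, and scrambled siRNA against DMSO. The 36 genes lie between the cell cycle markers, at -2.57 and -2.85 after PD0332991, and the excision repair lists near 0.

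Markers of the cell cycle moved with the 36 genes. All 18 G1/S markers and all 18 G2/M markers were 2-fold lower after PD0332991 (median log2 -2.57 and -2.85), and 11 and 9 of them in the CDK4/6 KD (median -1.16 and -1.01). RRM2, of ribonucleotide reductase, was the lowest of the G1/S list at 0.0466 (0.0372 to 0.0570), and KIF23, a kinesin of cytokinesis, the lowest of the G2/M list at 0.0599 (0.0321 to 0.0977). In scrambled siRNA against DMSO the medians of these lists were -0.58 and -0.50, again on the same side as the 36 genes. The part of cell cycle position in the levels of the repair genes was not tested.

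Markers of other cell types were also read. Of 20 keratinocyte markers 10 entered the PD0332991 comparison and 7 of them were 2-fold higher, against 1007 of the 13443 genes tested. All 10 reached 10 reads after PD0332991 but only 4 did so in DMSO. The rest entered only through their reads after PD0332991, so the filter largely set their direction and the 7 are no independent result. KRT5, one of these, had 2 reads in DMSO and 113 after PD0332991. The summed level of the 20 was 211, 239, 375 and 214 CPM, most of it SFN and KRT10. SFN went the other way and was 2-fold lower after PD0332991, at 0.463 (0.418 to 0.512). KRT1, TRIM29, COL17A1 and CALML5 had no reads in DMSO, and TP63, which defines the cell type, had no more than 1 read in any library. The summed level of 6 fibroblast markers was 48.3, 78.9, 8.60 and 22.7 CPM, most of it COL1A1, and DCN had no reads in either control. The controls differed here, since all 4 fibroblast markers tested were 2-fold lower in scrambled siRNA than in DMSO (883 of 13303 genes over all). Only 2 of these 4 reached 10 reads in scrambled siRNA, so the others entered through DMSO alone. Of 4 blood markers 3 had no more than 3 reads in any library, the exception being CD68. The part of these markers in the repair genes was not tested.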

How the data were processed

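Gene counts of 4 HepG2 libraries, 1 per group, were used as the authors deposited them, as whole-number counts of reads per gene symbol with no normalization. The submitters' processing notes name Bowtie2, edgeR and hg19, and the counter, its annotation and its use of strand are not given in the sources used here. Counts of 286 repeated symbols were summed, and none of these was among the 36 genes. Libraries were scaled by TMM (edgeR 4.0.16 in R 4.3.3). A gene entered a comparison when one of the 2 libraries held 10 reads or more, and its change was the ratio of scaled counts with a pseudocount of 0.5 read. The exact Clopper-Pearson 95% interval of the split of reads was computed (scipy 1.17.1) and tested on simulated data. It covers counting error only, since reads without molecular identifiers are not independent molecules. With 1 library per group no test across genes was run, and "lower" or "higher" means a counting interval beside 1 or, where stated, a change of 2-fold. Low counts were not raised to a floor, and each of the 36 genes had reads in every library.

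The 36 genes and the other lists were chosen with earlier results of these data known. All 36 genes are named, and from each other repair or cell cycle list at most the 2 lowest and the 1 highest after PD0332991 among genes that reached 50 reads in DMSO or after PD0332991. Other marker genes named were chosen after their values were seen. Some genes that this rule selects are not reported here. Alternatives were DESeq2 1.42.0 size factors, total counts, quantile normalization (limma 3.58.1), other pseudocounts, filters and thresholds, and the other control library. Promoters were taken from RefSeq (GRCh38.p14) and overlaps from GENCODE 29, whereas the counts were made on hg19.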

Additional observations from a re-analysis of the deposited data

Results flagged for a closer look

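USP1 stood on opposite sides of 1 in the 2 arms. It was lower after PD0332991, at 0.290 of DMSO, and higher in the CDK4/6 KD, at 1.23 of scrambled siRNA, so that the first fold change was 0.237 of the second. The difference between the arms was not tested, since each arm is 1 library against 1 library. Against DMSO the CDK4/6 KD ratio was 0.734, and the opposite direction was lost.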

How the results depend on the processing

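Under DESeq2 size factors, total counts, quantile normalization, a pseudocount of 5 reads, no filter, and another treatment of repeated symbols, 101 of 108 log2 changes (36 genes in 3 comparisons) kept their sign. The other 7 were within 0.087 of 0, with intervals that included 1, and changed sign under total counts (FANCF after PD0332991, FANCL and PALB2 in the CDK4/6 KD) or quantile normalization (FANCF, ATM and ATR after PD0332991, FANCC and CHEK2 in scrambled siRNA against DMSO). Total counts raised the CDK4/6 KD median of all genes by 0.10 on the log2 scale, and 5 of the 36 genes were then 2-fold lower. After PD0332991 the count of 26 became 20 when the whole interval had to pass 2-fold and 29 at a threshold of 1.5-fold. In the CDK4/6 KD the count of 7 became 3 when the whole interval had to pass 2-fold, 21 at 1.5-fold, and 15 with DMSO as the control. In scrambled siRNA against DMSO the count of 2 became 1 with a pseudocount of 5 reads, 1 with a filter of 50 reads (35 genes left), 7 at 1.5-fold and 0 when the whole interval had to pass 2-fold. With the controls exchanged, which was added after the data had been seen, 15 genes instead of 24 had the PD0332991 interval wholly below. With DMSO as the control, 4 genes changed sign in the CDK4/6 KD, namely USP1 (log2 -0.45), RAD51D (0.019), RAD54L (-0.20) and ATM (-0.17), the first 3 from an interval that excluded 1. Depth is lowest for EXO1, BLM, FANCB and XRCC2, with 6, 12, 13 and 14 reads after PD0332991. No library could be left out, with 1 per group. No paired analysis was possible because the groups have 1 library each.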
